A study of Mus musculus with 4 samples.

Results

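The insulin-like growth factor (IGF) system was followed in primary mouse embryonic fibroblasts through 10 listed genes: the ligands Igf1 and Igf2, the receptors Igf1r and Igf2r, and the binding proteins Igfbp2 to Igfbp7. The members were chosen by symbol, and all 10 were found among the 23235 symbols of the deposited tables. RNA of C57BL/6 cells was sequenced in 4 libraries, 1 per genotype. The genotypes were labelled wild type, Gadd45-/-, G3 Terc-/- and G3 Gadd45-/-Terc-/- (dKO), and the design text names the first gene as Gadd45a. G3 stands for the third generation bred without Terc, the RNA template of telomerase. The cells were grown as primary cultures from minced embryos, per the labels. The embryos' age and number, their sex and the passage of the cells are not given in the sources used here. Values are FPKM as deposited, that is, fragments scaled to the library's mapped fragments and to the kilobases of transcript. These values are per length, so levels may be set side by side between genes.

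IGF1 and IGF2 are small secreted growth factors that act through IGF1R, a receptor tyrosine kinase coupled to the PI3 kinase, AKT and MAP kinase pathways. IGF2R, the mannose 6-phosphate receptor, has no kinase and carries IGF2 to lysosomes. Secreted IGF binding proteins hold the ligands in the extracellular space and release them after cleavage, and IGFBP7 binds IGFs only weakly. Igf2 is an imprinted gene transcribed mainly from the paternal allele, while Igf2r and the non-coding H19 gene beside Igf2 are transcribed mainly from the maternal one. Fibroblasts make their own IGFs and binding proteins, and several binding proteins are known among the proteins released by senescent fibroblasts.

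The labels were checked first. Gadd45a was at 22.9 FPKM in the wild-type library, 33.9 in that labelled Gadd45-/-, 31.4 in that labelled G3 Terc-/- and 45.1 in that labelled dKO. It was thus not lower where the label says it is deleted, so genotypes are given as labelled. FPKM per gene does not show which exons were read. Terc was at 0.53 and 0.26 FPKM in the libraries with Terc and was listed at 0 in both G3 libraries. Levels this low rest on few fragments, so Terc is only a weak check of the G3 label. The male transcript Ddx3y was at 16.4 FPKM in the library labelled Gadd45-/- and at 0.011 to 0.023 FPKM in the other libraries. Xist, which coats the inactive X chromosome, was at 0.15 FPKM in that library and at 24.0 to 34.1 FPKM in the others. Sex therefore differed along with the label in every comparison that uses the library labelled Gadd45-/-. Estimated depth was 19500000 to 19900000 fragments a library. All 8 fibroblast markers, among them Col1a1, Pdgfra and Thy1, lay above 1 FPKM in every library.

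Promoter windows of 4 members are printed, chosen for the reasons given with each. Each runs from 250 bases before to 50 bases after a transcription start, 5′ to 3′ on the gene's strand, and comes from RefSeq on build GRCm38.p6. For the expression tables the submitters' processing notes name another build, mm9. Igfbp2 and Igfbp5 are shown because they are neighbours on chromosome 1, transcribed towards each other. Igfbp4 is shown because it was higher in both G3 libraries, and Igf2, with 1 of its 4 listed starts, because it was lower in them. Capitals mark matches to TATAAA or GGGCGG on either strand.
Igfbp5, chr1:72874816-72875115, minus strand: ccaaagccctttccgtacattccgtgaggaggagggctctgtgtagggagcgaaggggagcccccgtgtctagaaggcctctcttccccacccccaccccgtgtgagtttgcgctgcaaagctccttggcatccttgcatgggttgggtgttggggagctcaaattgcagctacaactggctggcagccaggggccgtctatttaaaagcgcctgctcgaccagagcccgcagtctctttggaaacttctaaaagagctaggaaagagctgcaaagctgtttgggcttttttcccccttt
Igfbp2, chr1:72824230-72824529, plus strand: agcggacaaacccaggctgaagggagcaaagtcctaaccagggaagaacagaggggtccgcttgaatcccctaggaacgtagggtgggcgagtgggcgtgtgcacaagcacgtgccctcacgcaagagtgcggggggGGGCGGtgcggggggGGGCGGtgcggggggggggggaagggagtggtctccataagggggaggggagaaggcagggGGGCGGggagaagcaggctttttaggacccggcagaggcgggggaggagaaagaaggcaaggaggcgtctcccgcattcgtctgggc
Igfbp4, chr11:99040994-99041293, plus strand: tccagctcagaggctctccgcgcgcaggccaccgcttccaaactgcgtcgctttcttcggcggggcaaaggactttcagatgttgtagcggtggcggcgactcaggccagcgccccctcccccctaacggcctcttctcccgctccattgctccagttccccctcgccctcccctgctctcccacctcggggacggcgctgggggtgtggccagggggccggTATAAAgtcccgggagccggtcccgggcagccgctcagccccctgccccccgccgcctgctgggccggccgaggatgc
Igf2, chr7:142657447-142657746, minus strand: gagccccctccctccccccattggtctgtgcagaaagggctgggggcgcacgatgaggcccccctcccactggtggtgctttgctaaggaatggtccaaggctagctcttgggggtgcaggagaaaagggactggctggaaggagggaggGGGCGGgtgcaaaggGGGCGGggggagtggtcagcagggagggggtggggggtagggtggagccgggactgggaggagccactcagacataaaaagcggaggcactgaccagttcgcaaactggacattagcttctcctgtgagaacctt
The Igfbp5 window, of the gene with the widest range between libraries, held neither string. The printed window of its neighbour Igfbp2 held GGGCGG 3 times, while the window of the other listed Igfbp2 start did not hold it. The printed Igf2 window held GGGCGG 2 times and a further Igf2 window held it 1 time, while the remaining Igf2 windows did not. The Igfbp4 window held TATAAA 28 bases before the start. Over the 14 windows of the 10 genes, TATAAA was present in 2 and GGGCGG in 6, against 13.6% and 35.7% of all 32851 RefSeq windows of this length. A core string of the interferon-stimulated response element, searched in the same way, was present in 1, a further Igf2 window, against 3.44% of all windows. A match describes letters only. One FPKM value per gene does not show which of the Igf2 or Igfbp2 starts was used.

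Both ligands differed strongly between the libraries, in opposite directions. Igf1 was at 3.65 FPKM in the wild-type library, 4.18 in that labelled Gadd45-/-, 19.5 in that labelled G3 Terc-/- and 12.2 in that labelled dKO. Both G3 libraries thus lay above both libraries with Terc. On the log2(FPKM + 1) scale the difference was 2.14 between the library labelled G3 Terc-/- and wild type and 1.34 between the libraries labelled dKO and Gadd45-/-. Even the lowest of these levels stood for about 97.4 fragments, counted over the median coding transcript. Since each genotype had 1 library, no difference given here has a replicate check, and no test was made.

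Igf2 was at 209 FPKM in the wild-type library, 177 in that labelled Gadd45-/-, 20.7 in that labelled G3 Terc-/- and 96.7 in that labelled dKO. It was therefore lowest, by 10.1-fold against wild type, in the library labelled G3 Terc-/-, and intermediate in the library labelled dKO. The log2(FPKM + 1) difference was -3.27 against wild type in the first case and -0.87 between the libraries labelled dKO and Gadd45-/-. The balance of the ligands moved with it. Igf2 transcripts exceeded Igf1 transcripts 57.3-fold in wild type and 42.4-fold in the library labelled Gadd45-/-. In the library labelled G3 Terc-/- the levels were nearly equal, with a ratio of 1.06, and in the library labelled dKO the ratio was 7.95. The summed ligand level was 213, 182, 40.2 and 109 FPKM, listed in that order of libraries.

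The receptors hardly differed. Igf1r, the signalling receptor, was at 24.6, 25.5, 27.2 and 23.5 FPKM across wild type and the libraries labelled Gadd45-/-, G3 Terc-/- and dKO. Igf2r, the clearing receptor, was at 99.2, 97.1, 90.7 and 121 FPKM, listed in that order. The highest library exceeded the lowest 1.16-fold for Igf1r and 1.33-fold for Igf2r, which were the smallest spreads of the 10 members. Igf2r transcripts outnumbered those of Igf1r 3.33-fold to 5.15-fold in every library. The plot of FPKM by gene shows the flat receptors between the spread ligands and binding proteins.

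**Figure D1:**
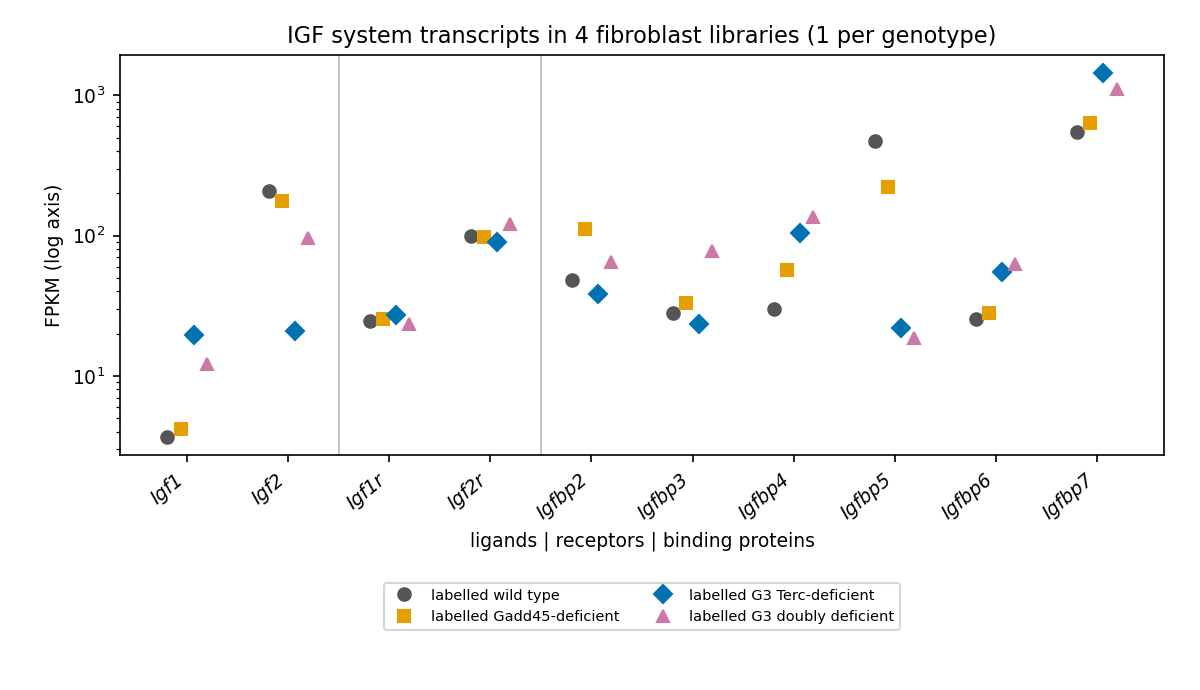
FPKM of the 10 IGF genes on a log axis, with 1 point for each of the 4 libraries and no error bars because each genotype had 1 library. The 4 points of Igf1r lie between 23.5 and 27.2 FPKM, while those of Igfbp5 run from 18.5 to 470 FPKM.

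Among the binding proteins Igfbp5 had the widest range. It is a matrix-bound binding protein, known for roles in bone, muscle and senescent cells. Igfbp5 was at 470 FPKM in the wild-type library, 223 in that labelled Gadd45-/-, 22.0 in that labelled G3 Terc-/- and 18.5 in that labelled dKO. Both G3 libraries lay far below both libraries with Terc. The level was 21.3-fold lower in the library labelled G3 Terc-/- than in wild type and 12.1-fold lower in the library labelled dKO than in the library labelled Gadd45-/-. Of the 11590 genes with a mean of at least 1 FPKM, only 3 had a lower difference of log2(FPKM + 1) than the -4.35 of Igfbp5 in the first of these comparisons. In the second, at -3.52, 4 genes lay lower, the male transcript Ddx3y (-4.11) among them.

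Igfbp2, which carries an integrin-binding motif and is abundant in embryonic tissue, did not follow its neighbour. It was at 48.1 FPKM in the wild-type library, 111 in that labelled Gadd45-/-, 38.2 in that labelled G3 Terc-/- and 64.4 in that labelled dKO. The highest value belonged to the library labelled Gadd45-/-, and the 2 values with the Gadd45-/- label were the 2 highest. The ratio of Igfbp5 to Igfbp2 was 9.77 in wild type, 2.02, 0.58 and 0.29 in the libraries labelled Gadd45-/-, G3 Terc-/- and dKO. The genes whose promoter windows are printed above as neighbours thus exchanged their order of abundance.

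Igfbp4, a soluble binding protein known mainly as an inhibitor of IGF action, was higher in both G3 libraries. It was at 30.0 FPKM in the wild-type library, 56.7 in that labelled Gadd45-/-, 104 in that labelled G3 Terc-/- and 135 in that labelled dKO. Igfbp6, which prefers IGF2 over IGF1, was at 25.3, 28.0, 54.8 and 63.0 FPKM, listed in that order. Both genes had their 2 highest levels in the G3 libraries, and for Igfbp6 the pairs of libraries within each Terc state were close. Igfbp7, the low-affinity member and a known senescence-associated protein, was at 547, 633, 1434 and 1117 FPKM. It was the most abundant of the 10 transcripts in every library and reached rank 29 of 11590 genes in the library labelled G3 Terc-/-.

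Igfbp3, the main carrier of IGFs in serum and a p53-induced gene in many cells, was highest in 1 library. It was at 28.2 FPKM in the wild-type library, 33.1 in that labelled Gadd45-/-, 23.5 in that labelled G3 Terc-/- and 77.5 in that labelled dKO. The other 3 libraries lay within 1.41-fold of each other. The library labelled dKO exceeded the library labelled G3 Terc-/- 3.30-fold and the library labelled Gadd45-/- 2.34-fold.

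Because the members differed in level as well as in direction, the make-up of the binding protein transcripts was different in each library. Their summed level was 1148 FPKM in the wild-type library, 1085 in that labelled Gadd45-/-, 1677 in that labelled G3 Terc-/- and 1475 in that labelled dKO. Igfbp5 held 40.9% of that sum in wild type, 20.6% in the library labelled Gadd45-/- and 1.31% and 1.25% in the G3 libraries. Igfbp7 held 47.6%, 58.4%, 85.5% and 75.7% in the same order. Without Igfbp7 the sum was 601, 452, 243 and 358 FPKM, and its leading transcript was Igfbp5 in both libraries with Terc and Igfbp4 in both G3 libraries. Of this smaller sum Igfbp4 held 4.99% in wild type, 12.6% in the library labelled Gadd45-/-, 43.0% in the library labelled G3 Terc-/- and 37.7% in the library labelled dKO. The share of Igfbp3 in it was 21.6% in the library labelled dKO and 4.69% to 9.68% in the others.

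**Figure D2:**
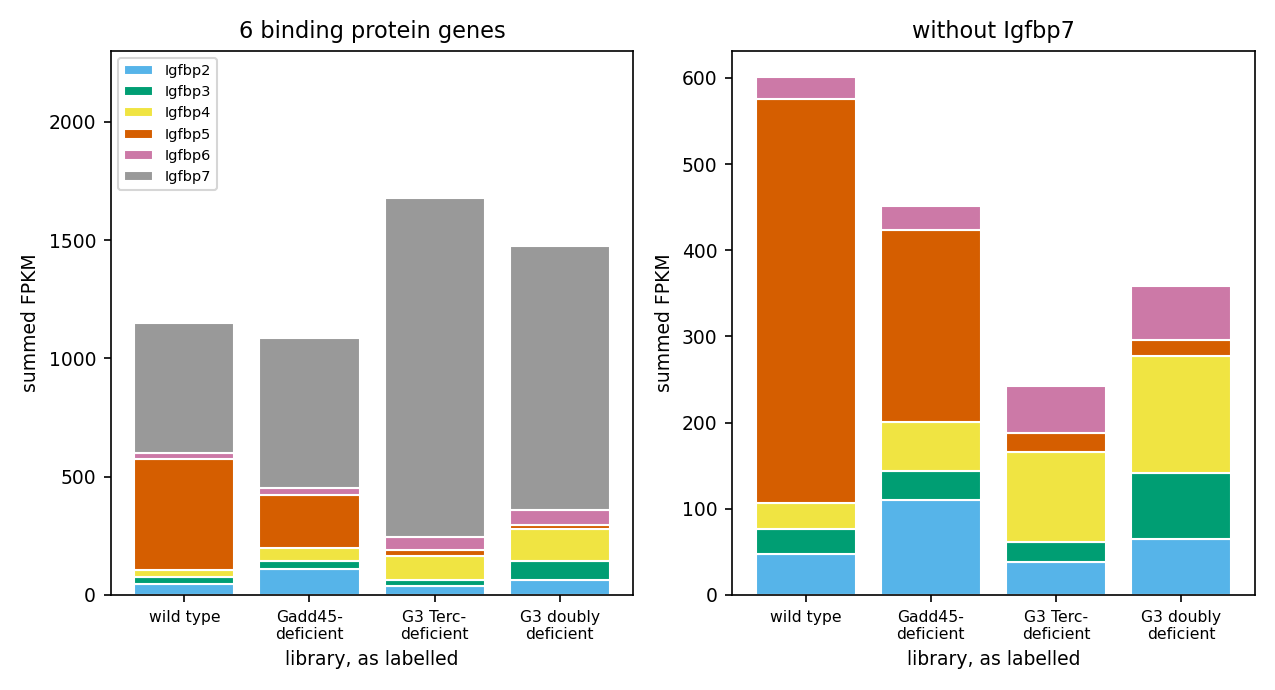
Summed FPKM of the binding protein genes in each library as stacked bars from 0, with all 6 genes on the left and without Igfbp7 on the right. The Igfbp5 segment shrinks from 470 FPKM in wild type to 18.5 FPKM in the library labelled dKO, while the Igfbp4 segment grows from 30.0 to 135 FPKM.

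The G3 Terc-/- label was compared in cells with and without the Gadd45-/- label. A gene is counted as higher or lower where log2(FPKM + 1) differs by at least 1, a 2-fold difference of FPKM + 1. Between the library labelled G3 Terc-/- and wild type, 6 of the 10 members passed this size rule, against 9.02% of all 22500 compared genes and 16.2% of genes with a mean of at least 1 FPKM. Igf1 (2.14), Igfbp4 (1.76), Igfbp7 (1.39) and Igfbp6 (1.08) were higher, and Igf2 (-3.27) and Igfbp5 (-4.35) lower. Their median difference was 0.01, beside 0.01 over all genes with a mean of at least 1 FPKM, since the members differed in both directions.

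Between the libraries labelled dKO and Gadd45-/-, which share no library with the comparison above, 5 members passed, against 2.63% of all genes and 4.84% of those with a mean of at least 1 FPKM. Igf1 (1.34), Igfbp4 (1.24), Igfbp3 (1.20) and Igfbp6 (1.14) were higher and Igfbp5 (-3.52) was lower. Igfbp7 lay just short of the rule at 0.82 and Igf2 at -0.87. These libraries differed in sex, as given above, and the part of sex in their differences was not tested. The members' median difference was 0.57, against -0.01 over all genes with a mean of at least 1 FPKM. In both G3 comparisons 4 members passed in the same direction, namely Igf1, Igfbp4, Igfbp5 and Igfbp6. Of the 10 members 7 had the same sign in both, the others being Igfbp3 and the receptors. The share of all genes that agreed in these ways was not computed, so neither count can be called particular to the members.

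**Figure D3:**
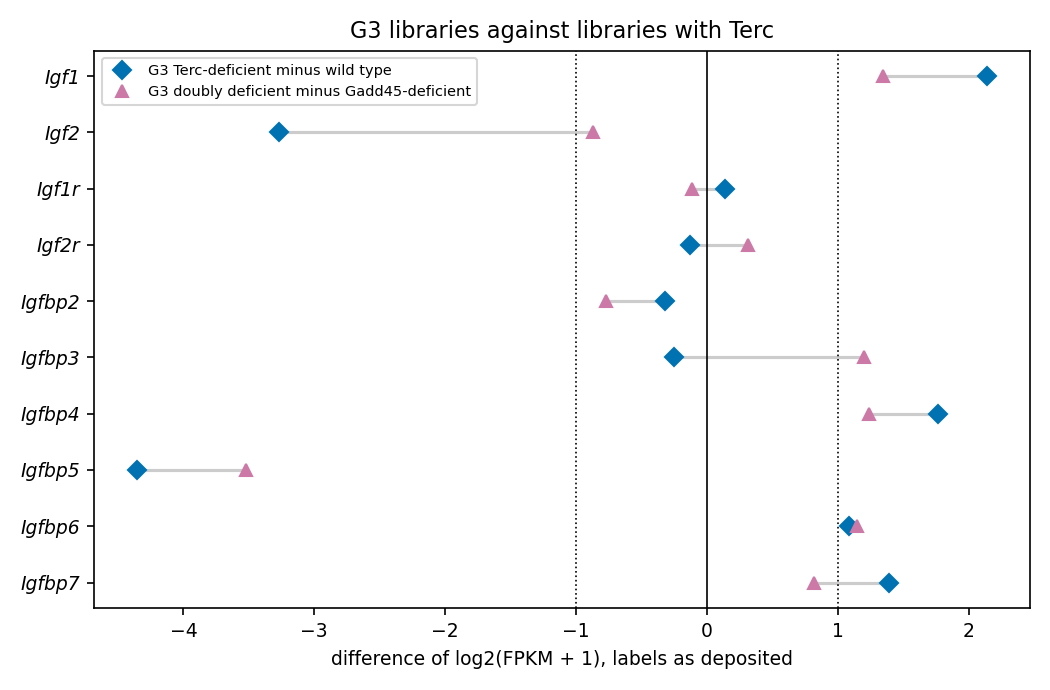
Differences of log2(FPKM + 1) for each member between a G3 library and the library with Terc of the same Gadd45 label, with diamonds for the libraries without the Gadd45-/- label and triangles for those with it; dotted lines mark the size rule. Igfbp5 lies far to the left in both comparisons, and Igfbp3 lies at -0.25 in the first and 1.20 in the second.

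**Figure D4:**
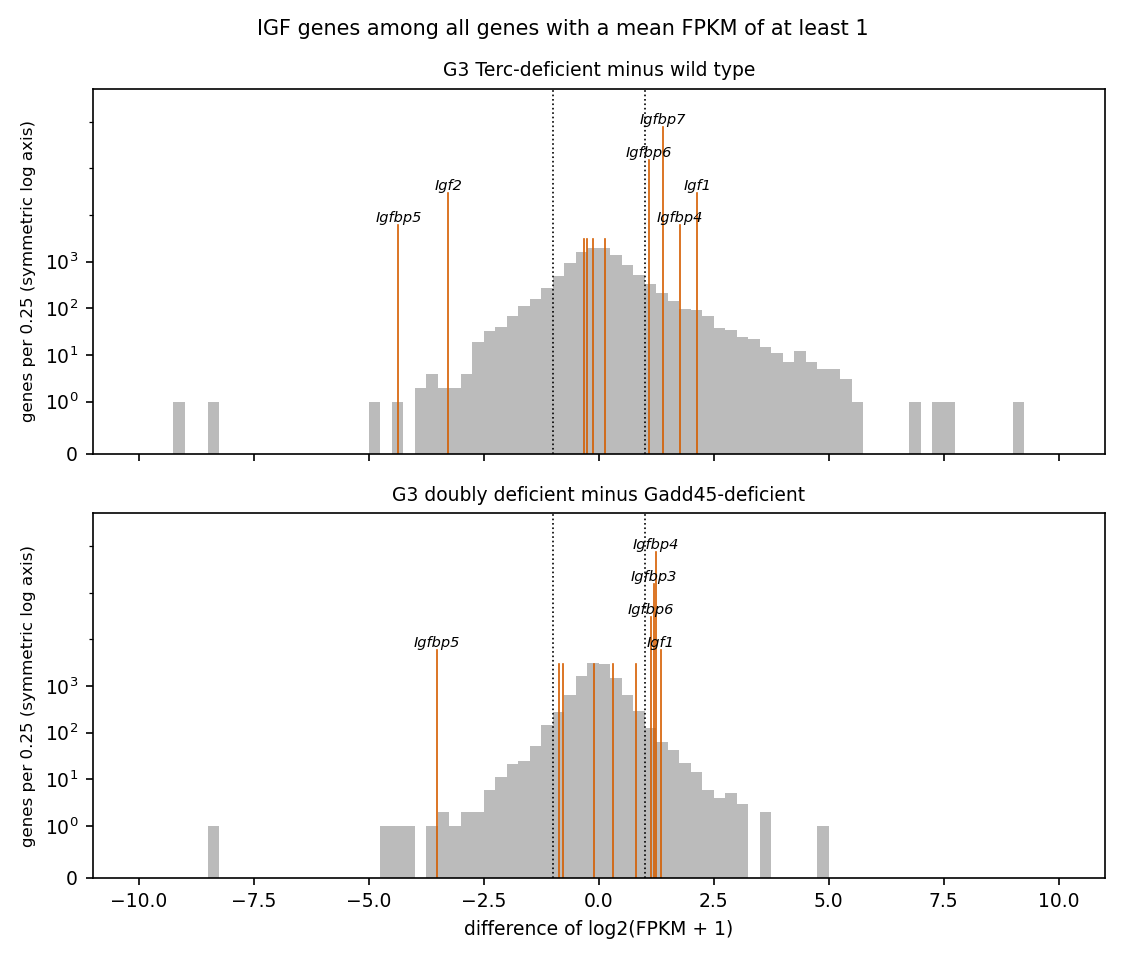
Numbers of genes per 0.25 of the log2(FPKM + 1) difference, on a symmetric log axis, for genes with a mean of at least 1 FPKM, with the members as orange lines and names on those past the dotted size rule; line heights carry no value. Igfbp5 stands in the outermost left tail in both panels, at -4.35 and -3.52.

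The Gadd45-/- label was compared in cells with and without Terc. Between the library labelled Gadd45-/- and wild type 2 of 10 members passed, against 0.324% of all genes and 0.535% of genes with a mean of at least 1 FPKM. These were the neighbours Igfbp2, higher by 1.19, and Igfbp5, with a difference of -1.07. Igfbp4 followed at 0.89, and the remaining 7 members lay between -0.24 and 0.22. The libraries here also differed in sex, as given above, and the part of sex in these values was not tested.

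Between the G3 libraries, labelled dKO and G3 Terc-/-, 2 members passed, both higher in the library labelled dKO, against 3.64% of all genes and 6.30% of those with a mean of at least 1 FPKM. Over all genes 192 were higher and 628 lower, and with quantile normalization 291 and 549. The members were Igf2, with a difference of 2.17, and Igfbp3, with 1.68. In this comparison 0.853% of all genes were higher. Igf2 had rank 19 and Igfbp3 rank 36 from the top of 11590 genes. Igfbp5 (-0.24) and Igfbp6 (0.20) lay near 0 here, far less than their differences between G3 libraries and those with Terc. The double difference, the Gadd45-/- difference in G3 cells minus that in cells with Terc, was 2.40 for Igf2 and 1.45 for Igfbp3. For the other 8 members it lay between -0.79 and 0.83. The double difference uses the library labelled Gadd45-/-, which differed in sex from the others, and the part of sex in it was not tested.

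Set against wild type, the library labelled dKO had 7 of 10 members past the rule, against 3.58% of all genes and 6.66% of those with a mean of at least 1 FPKM. Igfbp4 (2.13), Igf1 (1.50), Igfbp3 (1.43), Igfbp6 (1.28) and Igfbp7 (1.03) were higher, and Igfbp5 (-4.59) and Igf2 (-1.11) lower. The comparison shares libraries with those above, so its values are given for their size only.

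The rest of the pathway was described through 57 further genes, of which 48 had a mean of at least 1 FPKM. The insulin genes Ins1 and Ins2 were listed at 0 in every library, and Igfbp1 and Igfals, a liver-made partner of circulating IGF complexes, did not exceed 0.054 FPKM. Between the library labelled G3 Terc-/- and wild type 3 of the 57 genes were higher and 3 lower, 6 in all, against the 9.02% of all genes given above. The adaptor gene Grb14, whose product inhibits the insulin receptor, was at 12.3 FPKM in the wild-type library, 19.3 in that labelled Gadd45-/-, 59.4 in that labelled G3 Terc-/- and 24.9 in that labelled dKO. Stc1, encoding stanniocalcin, an inhibitor of the proteases that cleave IGFBPs, was at 1.75, 2.56, 11.4 and 2.36 FPKM. The protease gene Mmp2 was at 75.9, 94.6, 169 and 103 FPKM. All 3 were highest in the library labelled G3 Terc-/-.

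The 3 lower genes were H19, Adam12 and Plagl1. H19 was at 389, 313, 73.8 and 475 FPKM across wild type and the libraries labelled Gadd45-/-, G3 Terc-/- and dKO. Adam12, a metalloprotease that can cleave IGFBPs, was at 23.6, 24.5, 6.28 and 27.7 FPKM, listed in that order. Plagl1, an imprinted gene whose product is known to activate Igf2 and H19, was at 9.12, 11.0, 2.92 and 14.1 FPKM. Each of these genes was lowest in the library labelled G3 Terc-/- and highest in the library labelled dKO, whereas Igf2 in the library labelled dKO stayed below wild type.

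Between the libraries labelled dKO and Gadd45-/- none of the 57 genes passed the rule, against 2.63% of all genes. Pappa, the main protease of IGFBP4, lay just short of it at 0.99. Pappa was at 16.7, 18.5, 27.9 and 37.7 FPKM in the usual order, and it alone passed between the library labelled dKO and wild type (1.13), where 3.58% of all genes did. None passed between the library labelled Gadd45-/- and wild type, against 0.324% of all genes. Between the G3 libraries, where 3.64% of all genes passed, 3 were higher in the library labelled dKO, namely H19 (2.67), Adam12 (1.98) and Plagl1 (1.95), and 2 lower, Stc1 (-1.88) and Grb14 (-1.22).

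Of 18 genes of the kinases downstream of the receptors and their brakes, such as Akt1 and Mtor, none passed the rule in any of the 5 comparisons, against 0.535% to 16.2% of genes with a mean of at least 1 FPKM. Their median differences lay between -0.08 and 0.07. Insr, the insulin receptor, was at 7.39, 6.38, 11.4 and 6.97 FPKM. The docking proteins Irs1 (8.41, 10.3, 7.48 and 10.3 FPKM) and Irs2 (8.61, 7.57, 8.92 and 6.16 FPKM) lay within the size rule in every comparison. Stc2, a second stanniocalcin, was at 11.3, 7.21, 13.4 and 7.13 FPKM. Igf2bp2, which binds Igf2 RNA, was at 38.0, 36.8, 30.2 and 29.9 FPKM, and Hmga2, a chromatin protein that raises Igf2bp2, was at 87.7, 98.6, 58.8 and 54.3 FPKM. Both were lower in each G3 library than in each library with Terc, by less than the size rule.

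**Figure D5:**
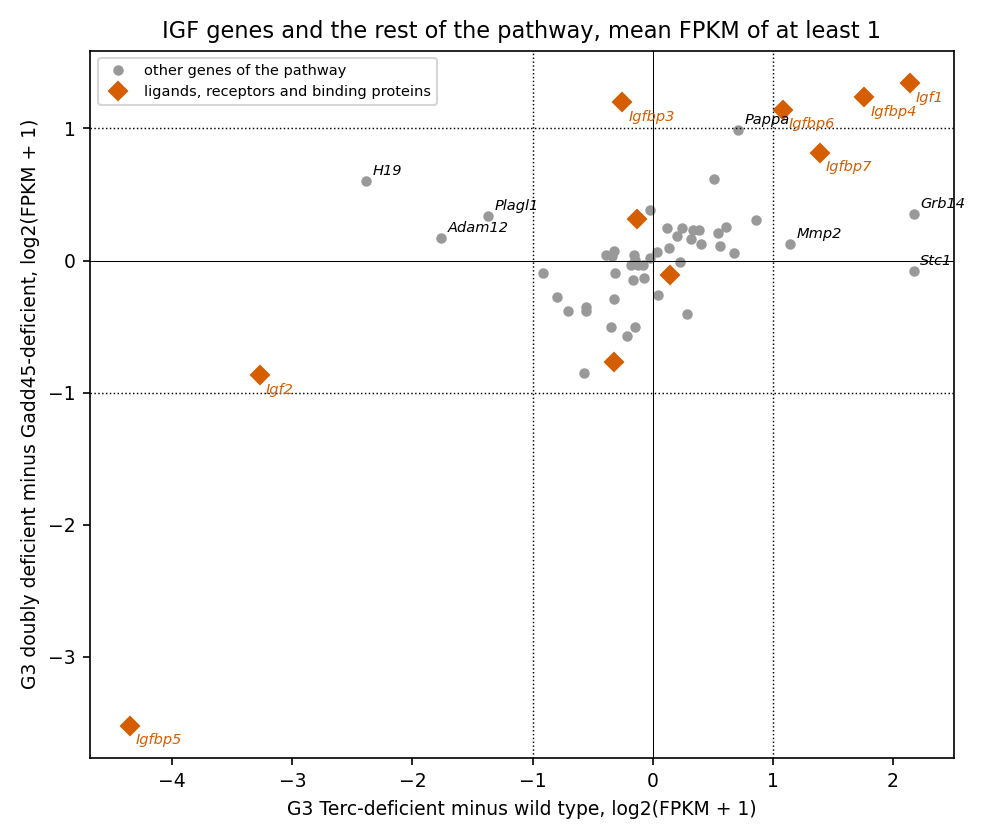
Differences of log2(FPKM + 1) for the 10 IGF genes (orange diamonds) and 48 further pathway genes (grey points), with the library labelled G3 Terc-/- minus wild type on the x axis and the library labelled dKO minus the library labelled Gadd45-/- on the y axis; dotted lines mark the size rule. No grey point lies past the rule on the y axis, where Pappa reaches 0.99.

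The 3 members with the widest range were compared with all other genes of at least 1 FPKM by the Euclidean distance between their centred log2(FPKM + 1) profiles over the 4 libraries. Among those closest to Igf1 were Asap3 (distance 0.07) and the hypoxia factor gene Hif1a (0.13). Hif1a was at 44.6, 48.8, 202 and 115 FPKM in the order used above. Closest to Igf2 were the fibrillin gene Fbn2 (0.36), the imprinted gene Mest (0.44) and the mitotic cyclin gene Ccnb1 (0.46). Mest was at 27.4, 27.4, 1.27 and 11.3 FPKM. The profile of Igfbp5 had no close match, the nearest being the troponin gene Tnnt2 (1.21), Cmklr1 (1.31) and Lgr5 (1.46). With 4 libraries, likeness of profile describes these libraries only.

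Some markers of cell types that embryo cultures can hold also differed between the libraries. Summed fibroblast markers were at 11581, 12202, 6685 and 11522 FPKM across wild type and the libraries labelled Gadd45-/-, G3 Terc-/- and dKO. Of these markers 2 of 8, Col1a1 and Pdgfrb, were lower by the size rule in the library labelled G3 Terc-/- than in wild type. There 16.2% of genes with a mean of at least 1 FPKM passed in either direction. Fn1 (0.27) and Pdgfra (0.15) were higher in that comparison, by less than the rule, and the remaining markers were lower by less than the rule. In RNA of whole cultures fewer cells of a type and less RNA per cell cannot be told apart. Summed hepatocyte markers were at 8.68 FPKM in wild type and at 0.060, 0.50 and 0.093 FPKM in the others, with 3 of 5 lower by the rule in each. Of these markers Afp was near 0 in every library, at 0.027 FPKM in wild type and 0 in the others. Summed epithelial markers were at 9.22, 2.73, 1.67 and 1.89 FPKM, with 2 of 6 lower by the rule in each than in wild type and Cdh1 at 0 in wild type. Of all genes, 0.324% passed in either direction between the library labelled Gadd45-/- and wild type. The shares were 9.02% for that labelled G3 Terc-/- and 3.58% for that labelled dKO. Across wild type and the libraries labelled Gadd45-/-, G3 Terc-/- and dKO, Igf2 was at 209, 177, 20.7 and 96.7 FPKM. Igfbp5 was at 470, 223, 22.0 and 18.5 FPKM, listed in that order. The part of hepatocytes or epithelial cells in the wild-type values was not tested.

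Summed cartilage markers were at 10.1, 11.2, 2.82 and 6.76 FPKM, with 2 of 5 lower by the rule in the library labelled G3 Terc-/- than in wild type. There 9.02% of all genes passed in either direction. Like Igf2, the summed cartilage markers were lowest in the library labelled G3 Terc-/-. So were the summed fibroblast, epithelial and neural markers. The part of cartilage cells in the values of Igf2 was not tested. Summed macrophage markers were at 15.6 FPKM in the library labelled dKO and 4.32 to 5.55 FPKM in the others. Most of the former was Lyz2, at 11.5 FPKM, while the leukocyte gene Ptprc did not exceed 0.081 FPKM. Igfbp3 was highest in that library, and the part of these cells in its value was not tested. All 5 endothelial and all 5 muscle markers lay below 1 FPKM in every library. Of 5 neural markers 4 were found, and their sum was at 102 FPKM in the library labelled dKO and 44.7 to 55.5 FPKM in the others, most of it Tubb3. Nes was highest in the library labelled dKO as well. Sox2 and Sox10 were not, at 0.022 and 0.020 FPKM there, below both libraries with Terc.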

How the data were processed

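Polyadenylated RNA from embryo fibroblasts of 4 genotypes gave 1 library each, per the labels' protocols. Each deposited table by the authors holds FPKM, 1 value for every gene symbol. The submitters' processing notes name TopHat2 2.1.1, Cufflinks 2.2.1 and build mm9 but not what each was used for. The annotation and strand setting are not given in the sources used here, so overlapping and antisense genes are uncertain.

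Of 23235 symbols, 735 of short non-coding RNA were left out and 22500 compared. Differences of log2(FPKM + 1) were counted at 1 or more in size, and no test was made. Alternatives were a pseudocount of 0.1 FPKM, median-of-ratios scaling, quantile normalization, and a mean of at least 1 FPKM. Depth was estimated from values up to 0.05 FPKM of genes with 1 transcript of 1500 to 8000 nt in GENCODE M21, with a 200 nt fragment. Of these values 75.5% to 83.3% lay within 0.1 of a whole fragment. The estimate was set on the same values, and it covers counting error only.

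The named genes are the 10 members, the 3 largest pathway differences each way past the rule in 2 comparisons, 9 pathway genes named in any case, the 3 nearest profiles of 3 members, the members' neighbours, and checks of the labels. Some results that this rule selects are left out. Further genes were named after their values were seen. Members and lists were chosen with earlier results of these data known. The size rule was run on simulated libraries that held counting error only, so variation between cultures was not covered. Python 3.11.15 and pandas 2.3.3 were used. Protein sequences were not used here.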

Additional observations from a re-analysis of the deposited data

Results flagged for a closer look

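For 2 members the same label went with opposite signs in the other background, with effects at least 1 apart on the log2(FPKM + 1) scale. The Gadd45-/- label went with an Igf2 difference of -0.24 in cells with Terc and 2.17 in G3 cells. The G3 Terc-/- label went with an Igfbp3 difference of -0.25 without the Gadd45-/- label and 1.20 with it. The values -0.24 and 1.20 use the library labelled Gadd45-/-, which differed in sex from the library it was compared with. Each sign rests on single libraries, and neither difference between backgrounds was tested.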

How the results depend on the processing

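Of 50 differences, 10 members in 5 comparisons, 0 crossed the size rule under a pseudocount of 0.1 FPKM, median-of-ratios scaling or quantile normalization. The sign of 1 difference near 0 turned under each scaling, that of Igf2r under median-of-ratios scaling (library labelled Gadd45-/- minus wild type) and that of Igf1r under quantile normalization (library labelled dKO minus wild type). With the pseudocount of 0.1 FPKM, which brings in genes of few fragments, the genes past the rule numbered 4143 (G3 Terc-/- minus wild type), 2031 (dKO minus Gadd45-/-), 820 (Gadd45-/- minus wild type), 2356 (dKO minus G3 Terc-/-) and 2441 (dKO minus wild type), against 2030, 591, 73, 820 and 806. Pathway genes past the rule between the libraries labelled dKO and Gadd45-/- numbered 2 with that pseudocount (Pappa and Pappa2, the latter named after its values were seen) and 1 under each scaling (Pappa), against 0. Between the library labelled dKO and wild type they numbered 2 under each of these settings (Pappa and Grb14), against 1, and between the G3 libraries 6 with that pseudocount, against 5. A mean of at least 1 FPKM left the member and pathway counts as they were. No paired analysis was possible because each genotype had 1 library, and no replicate could be left out. Depth limits Igf1 most among the members, at about 97.4 fragments in wild type.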

Other observations

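Transcripts beside the members were looked at for the same differences. Mrpl23, a protein-coding neighbour of Igf2, was at 56.1, 47.7, 39.3 and 45.6 FPKM across wild type and the libraries labelled Gadd45-/-, G3 Terc-/- and dKO, and Ins2, on the other side, was listed at 0 in all. Igf2as, antisense to Igf2, was at 0.92, 0.83, 0.044 and 0.19 FPKM, and without a stated strand setting its fragments cannot be told apart from those of Igf2. Airn, the non-coding RNA antisense to Igf2r, was at 2.79, 2.12, 7.33 and 4.43 FPKM and shares that limit. Rpl37a, on the far side of Igfbp2, was at 1003, 985, 799 and 908 FPKM, and Tnp1, beyond Igfbp5, was listed at 0. Top2a, a topoisomerase of dividing cells beside Igfbp4, was at 45.2, 42.5, 8.09 and 18.8 FPKM, opposite in order to Igfbp4 between the G3 libraries and those with Terc. Lphn3, beside Igfbp7, was at 4.38, 4.18, 0.78 and 1.41 FPKM, again opposite to its neighbour, while Polr2b on the other side was at 23.1, 21.2, 18.6 and 16.9 FPKM. The remaining protein-coding neighbours, such as Tns3 beside Igfbp3 and Spryd3 beside Igfbp6, lay within the size rule in all 5 comparisons.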
